A study of Homo sapiens with 21 samples.

Results

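TESMIN, CRHR1 and ATP8B3 are 3 genes of the 61268 features in the deposited count table, grouped because each was lower in the uninduced cultures labelled 12hr than in the cultures labelled day 10. They were chosen by their measured levels in these 2 groups, so that difference is described below without a test and supports nothing. The same holds for every comparison that uses a day 10 or an uninduced 12 h library. All 3 genes were among the 19655 features that passed the filter on low counts, and the 6 comparisons that use neither of those groups were tested.

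The samples came from H9 (WA-09), an established human embryonic stem cell line, carrying a wild-type GSX2 transgene with a 2xFLAG tag under the doxycycline-responsive promoter TRE3G. GSX2 is a homeodomain transcription factor of progenitors in the lateral ganglionic eminence (LGE), the ventral forebrain region from which striatal neurons arise, and the cells were differentiated toward LGE-like progenitors in Essential 6 medium. The medium held LDN193189, SB431542 and XAV939, inhibitors of BMP, TGF-beta/Activin and WNT signalling, then LDN193189 and SB431542 alone, then IWP2, a blocker of WNT secretion, with Activin A. The Dox groups received 100 ng/mL doxycycline for 12 h from day 10 and were sampled at 12, 24 and 48 h, so that the Dox 24 h and Dox 48 h cultures had been without the drug for the remaining time. The NoDox groups, also at 12, 24 and 48 h, and the day 10 group received none. All 7 groups, with 3 libraries each, carry the transgene, come from 1 transgenic line and went through the same media. No library of doxycycline-treated cells without the transgene was analysed here, so an effect of the drug and an effect of GSX2 cannot be told apart. The labels do not say that replicates are separate cultures, and p-values measure the spread between these libraries, which may be technical.

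TESMIN, also known as a testis-expressed metallothionein-like protein, is a cysteine-rich CXC-domain protein known from male germ cells, and it shares that domain with LIN54, a DNA-binding subunit of the MuvB complex that controls cell cycle genes. CRHR1 is the receptor for corticotropin-releasing hormone (CRH) and urocortin, a class B1 G protein-coupled receptor that raises cyclic AMP. It starts the stress response in pituitary corticotrophs and is also present in forebrain neurons. ATP8B3 is a P4-ATPase, a family of flippases that move phospholipids from the outer to the inner leaflet of a membrane, mostly together with a CDC50 subunit. In mouse it is known from the acrosome of sperm.

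By the coordinates in the count table, which are on hg38, TESMIN lies on the minus strand of chromosome 11 from 68707440 to 68751520, with 13 merged exons. CRHR1 lies on the plus strand of chromosome 17 from 45784277 to 45835828, with 14 merged exons, and ATP8B3 on the minus strand of chromosome 19 from 1782075 to 1812276, with 29. Promoters are shown for CRHR1 and ATP8B3, since the RefSeq promoter set used here held only these 2 of the 3 genes. They are RefSeq sequence on GRCh38.p14, 5′ to 3′ on the strand of the gene, with matches to the GC box (GGGCGG, or CCGCCC on the other strand) in capitals. The CRHR1 stretch, at chr17:45784070-45784276 on the plus strand, ends where the gene begins in the count table, and the ATP8B3 stretch is at chr19:1812277-1812526 on the minus strand.
CRHR1: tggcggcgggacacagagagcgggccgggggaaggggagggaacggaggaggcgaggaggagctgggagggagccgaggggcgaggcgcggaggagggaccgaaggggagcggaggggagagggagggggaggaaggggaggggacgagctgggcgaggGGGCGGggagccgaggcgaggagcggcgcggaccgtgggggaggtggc
ATP8B3: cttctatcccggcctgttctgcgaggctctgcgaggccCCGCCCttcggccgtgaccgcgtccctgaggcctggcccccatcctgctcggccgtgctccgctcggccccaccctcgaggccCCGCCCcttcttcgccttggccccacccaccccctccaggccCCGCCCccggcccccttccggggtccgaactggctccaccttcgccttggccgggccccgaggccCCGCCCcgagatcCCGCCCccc
Both are rich in G and C. In the 250 bases before the RefSeq start, CRHR1 held 78.8% G and C, a share that 4.64% of 35116 promoters reach, and ATP8B3 held 77.2%, which 6.83% reach. The CRHR1 stretch held 1 GC box and the ATP8B3 stretch held 5, none overlapping another, while 42.64% of all promoters hold at least 1. Neither stretch held, on either strand, the homeodomain core TAATTA, found in 4.35% of promoters, or TAATTG, found in 6.7%. The E-box CACGTG, found in 6.34%, and the cAMP response element TGACGTCA, found in 1.65%, also had no match in these windows. These matches describe letters and not sites.

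Library totals were between 14439089 and 33842591 counts. The transgene averaged 876 ± 114 CPM (the counts-per-million unit, scaled by the TMM method) in the Dox 12 h libraries, against 0.227 ± 0.228 CPM in NoDox 12 h libraries (SD, n = 3 each), and 19.5 and 0.934 CPM in the Dox 24 h and Dox 48 h libraries. All 13 of 13 LGE and telencephalic progenitor markers had counts, with a summed level of 1811 to 1897 CPM in the Dox 12 h libraries and 4115 to 4983 CPM in all others. Of 5 of 5 pluripotency markers, POU5F1, NANOG and TDGF1 averaged 0.185 CPM or less in every group, while DPPA4 averaged 92.0 to 154.6 CPM and LIN28A 42.6 to 82.5 CPM. By the chi-square per degree of freedom between replicates, which was 1.85 to 5.67 for most pairs, 2 libraries stood apart: Dox 12 h replicate 3, at 16.7 and 26.8 against its replicates, and day 10 replicate 1, at 10.8 and 14.5. The log2 fold changes of the 3 genes that use these libraries are given below with and without them. In such bulk samples fewer cells of a type and less RNA per cell cannot be told apart.

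TESMIN had 0.306, 0.686 and 0.835 CPM in the NoDox 12 h libraries, against 4.23, 4.01 and 4.07 CPM in the day 10 libraries. The counts behind these levels were 6, 15 and 19 reads at NoDox 12 h, against 60, 91 and 92 at day 10. All 3 NoDox 12 h values lay below every day 10 value, and the fitted log2 fold change was -2.71, the 8th largest fall of all features tested. CRHR1 had 1.68, 1.10 and 1.23 CPM in the NoDox 12 h libraries, against 6.41, 4.80 and 5.44 CPM in the day 10 libraries. Its groups did not overlap either, and its log2 fold change of -2.04 ranked 37th among falls. ATP8B3 had 0.459, 0.640 and 0.835 CPM in the NoDox 12 h libraries, against 3.10, 2.55 and 2.39 CPM in the day 10 libraries. Its log2 fold change was -2.01, 40th among falls. These are the differences that chose the genes, and 16.3% of all features tested were called lower in that comparison by edgeR at an adjusted p below 0.05. Without day 10 replicate 1 the log2 fold changes were -2.69 for TESMIN, -1.95 for CRHR1 and -1.91 for ATP8B3.

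**Figure D1:**
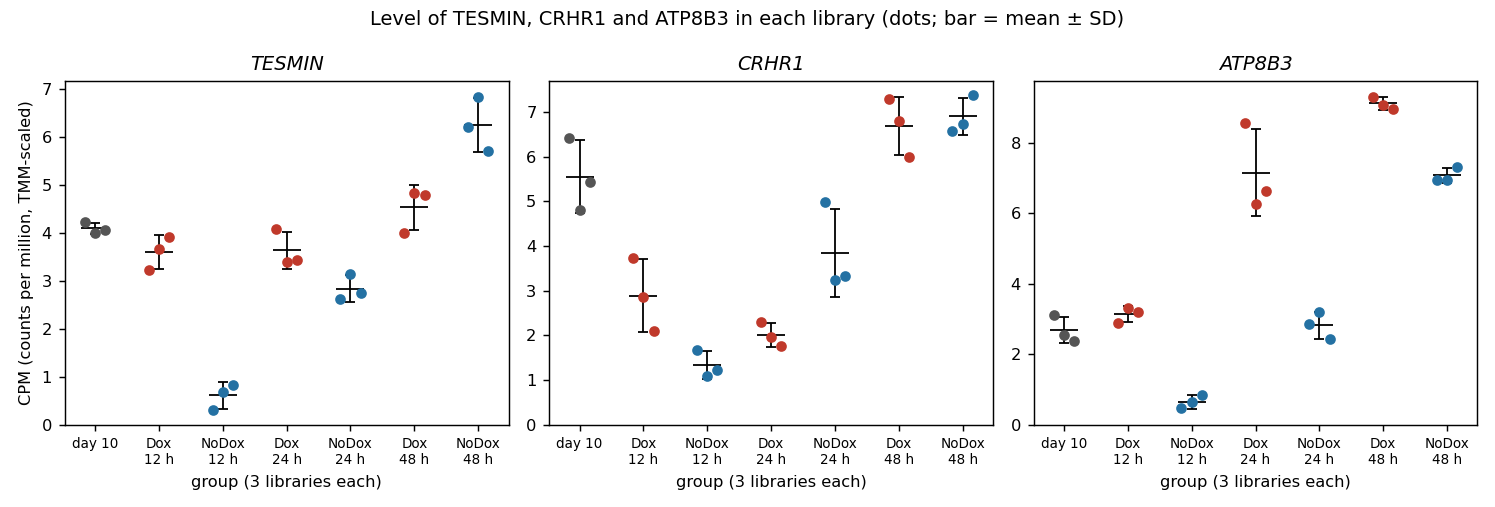
TMM-scaled CPM (vertical axes, from 0) of TESMIN, CRHR1 and ATP8B3 in the 3 libraries of each group (horizontal axes). Dots are libraries and black bars the mean ± SD. The NoDox 12 h dots are the lowest in each panel, at 0.306 to 0.835 CPM for TESMIN, 1.10 to 1.68 for CRHR1 and 0.459 to 0.835 for ATP8B3.

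The low level at NoDox 12 h was not shared by any other group. In each of the 3 genes all 3 NoDox 12 h libraries were below all 18 other libraries, a pattern that 3.05% of all features tested had. TESMIN and ATP8B3 were further below their other groups than any other feature tested. The NoDox 12 h mean of TESMIN was 2.15 log2 units below the lowest of its other 6 group means, and that of ATP8B3 was 1.94 below, ranks 1 and 2 of 19655. CRHR1 was 0.57 below and ranked 233rd, and over all features the median difference was 0.36 above the lowest other group. A gap of at least 1 log2 unit, with every NoDox 12 h library lowest, was found in 0.0967% of features. These ranks rest on a group that chose the genes and are descriptions.

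**Figure D2:**
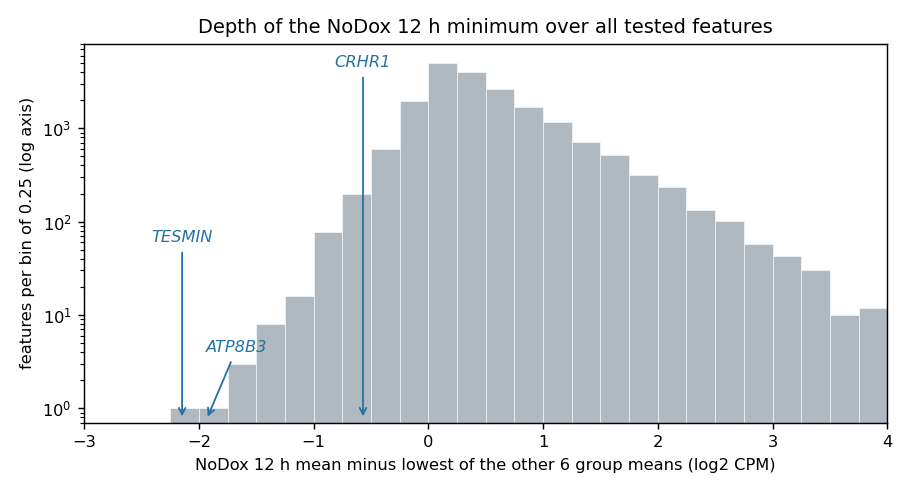
Number of tested features (vertical axis, log scale) by the NoDox 12 h mean minus the lowest of the other 6 group means (horizontal axis, log2 CPM, bins of 0.25, drawn up to 4). Arrows mark TESMIN at -2.15 and ATP8B3 at -1.94, at the left end, and CRHR1 at -0.57.

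Cultures given doxycycline did not have this low level at the same hour. TESMIN had 3.22, 3.66 and 3.93 CPM in the Dox 12 h libraries, against 0.306, 0.686 and 0.835 CPM in the NoDox 12 h libraries, a log2 fold change of 2.52. ATP8B3 had 2.90, 3.31 and 3.21 CPM in the Dox 12 h libraries, against 0.459, 0.640 and 0.835 CPM in the NoDox 12 h libraries, a log2 fold change of 2.25. The log2 fold changes of Dox 12 h over day 10 were small, at -0.19 for TESMIN, whose groups did not overlap, and 0.25 for ATP8B3, whose groups did. They were -0.18 and 0.34 without day 10 replicate 1, and -0.25 and 0.23 without Dox 12 h replicate 3. CRHR1 had 3.72, 2.85 and 2.09 CPM in the Dox 12 h libraries, against 1.68, 1.10 and 1.23 CPM in the NoDox 12 h libraries. Its log2 fold change was 1.14 over NoDox 12 h and -0.90 over day 10, and it overlapped neither group. Over day 10 it was -0.80 without day 10 replicate 1 and -0.74 without Dox 12 h replicate 3. The level of TESMIN at Dox 12 h was known from an earlier account of these data. All 3 comparisons reuse the NoDox 12 h libraries, and 19.8% of all features tested were called higher at Dox 12 h than at NoDox 12 h, beside 19.9% lower and 39.7% in either direction. Without Dox 12 h replicate 3 the log2 fold changes over NoDox 12 h were 2.46 for TESMIN, 1.31 for CRHR1 and 2.24 for ATP8B3.

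Among the comparisons that did not choose the genes, the first was 24 h, when the transgene averaged 19.5 CPM in Dox cultures. ATP8B3 was higher and CRHR1 lower in the Dox 24 h libraries. ATP8B3 had 8.57, 6.26 and 6.65 CPM in the Dox 24 h libraries, against 2.86, 3.19 and 2.42 CPM in the NoDox 24 h libraries. Every Dox 24 h value was above every NoDox 24 h value. The log2 fold change was 1.34 ± 0.15 (SE), a 2.53-fold rise (adjusted p = 2.76e-08, edgeR's quasi-likelihood test, Benjamini-Hochberg over all features tested, as in all tests below). CRHR1 had 2.31, 1.96 and 1.76 CPM in the Dox 24 h libraries, against 4.98, 3.23 and 3.33 CPM in the NoDox 24 h libraries. The groups did not overlap, although NoDox 24 h replicate 1 was well above its replicates, and the log2 fold change was -0.96 ± 0.20 (adjusted p = 4.57e-04), a 1.94-fold fall. TESMIN had 4.08, 3.39 and 3.44 CPM in the Dox 24 h libraries, against 2.62, 3.15 and 2.74 CPM in the NoDox 24 h libraries. Its groups did not overlap, but its log2 fold change of 0.37 ± 0.17 did not pass the threshold of 0.05 (adjusted p = 0.0965). So 2 of the 3 genes were called, 1 in each direction, where 33.9% of all features tested were called in either. The summed level of 5 of 5 neuronal markers, mostly TUBB3, DCX and STMN2 and none at 0, was 895.1 to 1055 CPM in the Dox 24 h libraries and 1190 to 1463 CPM in the NoDox 24 h libraries, without overlap, and its part in these differences was not tested. Of the 5, only RBFOX3 was higher on average at Dox 24 h, at 5.60 CPM against 3.79 CPM at NoDox 24 h.

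At 48 h the differences had other sizes and, for TESMIN, the other sign. TESMIN had 4.00, 4.83 and 4.79 CPM in the Dox 48 h libraries, against 6.21, 6.84 and 5.70 CPM in the NoDox 48 h libraries. Every Dox 48 h value was below every NoDox 48 h value, and the log2 fold change was -0.46 ± 0.16 (adjusted p = 0.0433). That call was lost when any of 7 libraries was left out, namely the 3 Dox 48 h libraries, NoDox 48 h replicates 1 and 2, day 10 replicate 2 and NoDox 24 h replicate 3, with adjusted p from 0.0508 to 0.175 and log2 fold changes from -0.52 to -0.39. CRHR1 had 7.29, 6.79 and 6.00 CPM in the Dox 48 h libraries, against 6.58, 6.74 and 7.38 CPM in the NoDox 48 h libraries. These groups overlapped, with a log2 fold change of -0.042 ± 0.176 (adjusted p = 0.904). ATP8B3 had 9.32, 9.08 and 8.97 CPM in the Dox 48 h libraries, against 6.96, 6.95 and 7.32 CPM in the NoDox 48 h libraries. Its groups did not overlap, yet the log2 fold change of 0.37 ± 0.14 did not pass the test (adjusted p = 0.0668). One call among 3 genes stands beside 18.2% of all features called in either direction, 9.23% higher and 8.94% lower.

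The doxycycline effect at 48 h minus that at 24 h was tested as an interaction, and it passed for all 3 genes, where 25.8% of all features tested passed in either direction. For TESMIN the effect was -0.46 at 48 h and 0.37 at 24 h, and the difference was -0.83 ± 0.23 log2 units (adjusted p = 0.00890). For ATP8B3 the difference was -0.97 ± 0.20 (adjusted p = 7.20e-04), the effects being 0.37 at 48 h and 1.34 at 24 h. For CRHR1 it was 0.92 ± 0.27 (adjusted p = 0.0125), the effects being -0.042 at 48 h and -0.96 at 24 h. The CRHR1 difference was 0.66 without NoDox 24 h replicate 1 and no longer passed (adjusted p = 0.0848).

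**Figure D3:**
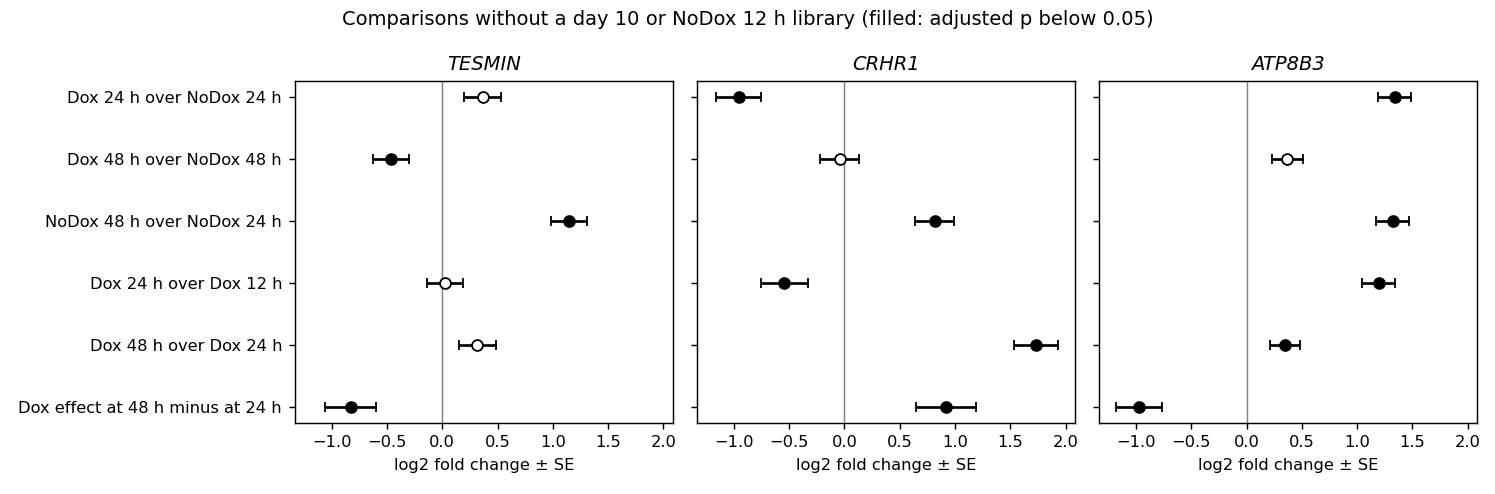
Log2 fold change ± SE (horizontal axes) of TESMIN, CRHR1 and ATP8B3 in the 6 comparisons that use no day 10 or NoDox 12 h library. Filled points passed an adjusted p below 0.05. TESMIN and ATP8B3 have a negative difference of the doxycycline effect between 48 and 24 h, at -0.83 and -0.97, and CRHR1 a positive one, at 0.92.

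In the uninduced cultures all 3 genes were higher at 48 h than at 24 h. TESMIN averaged 6.25 ± 0.57 CPM in the NoDox 48 h libraries and 2.84 ± 0.28 CPM in the NoDox 24 h libraries (SD, n = 3 each), and its log2 fold change was 1.15 ± 0.16 (adjusted p = 2.37e-06). ATP8B3 averaged 7.08 ± 0.22 CPM in the NoDox 48 h libraries and 2.82 ± 0.39 CPM in the NoDox 24 h libraries, with a log2 fold change of 1.32 ± 0.15 (adjusted p = 9.04e-08). CRHR1 averaged 6.90 ± 0.42 CPM in the NoDox 48 h libraries and 3.85 ± 0.98 CPM in the NoDox 24 h libraries, with a log2 fold change of 0.82 ± 0.18 (adjusted p = 5.54e-04). None of these groups overlapped, and 21.5% of all features tested were called higher at NoDox 48 h, beside 19.9% lower and 41.4% in either direction. The 5 neuronal markers had a summed level of 1306 to 1625 CPM in the NoDox 48 h libraries and 1190 to 1463 CPM in the NoDox 24 h libraries, in overlapping groups, and their part in these rises was not tested.

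All 3 genes were above their NoDox 12 h levels by NoDox 24 h. TESMIN averaged 2.84 ± 0.28 CPM at NoDox 24 h and 0.609 ± 0.273 CPM at NoDox 12 h, a log2 fold change of 2.18. The corresponding log2 fold changes were 1.56 for CRHR1 and 2.11 for ATP8B3, given without a test. At NoDox 24 h the genes stood at log2 fold changes of -0.53 for TESMIN, -0.49 for CRHR1 and 0.10 for ATP8B3 against day 10. At NoDox 48 h these were 0.61, 0.33 and 1.42 in the same gene order. Without day 10 replicate 1 they were -0.52, -0.38 and 0.20 at NoDox 24 h, and 0.63, 0.43 and 1.52 at NoDox 48 h.

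In the induced cultures the genes moved at different steps. ATP8B3 was higher at Dox 24 h than at Dox 12 h, at 7.16 ± 1.24 CPM against 3.14 ± 0.22 CPM (SD, n = 3 each), a log2 fold change of 1.19 ± 0.15 (adjusted p = 1.82e-07), and 1.21 without Dox 12 h replicate 3 (adjusted p = 5.74e-07). TESMIN averaged 3.64 ± 0.38 CPM at Dox 24 h and 3.60 ± 0.36 CPM at Dox 12 h, in overlapping groups, with a log2 fold change of 0.024 ± 0.166 (adjusted p = 0.923), and 0.085 without Dox 12 h replicate 3 (adjusted p = 0.746). With library totals in place of TMM, which shifts the median of all features by -0.18 in this comparison, that value was -0.15. CRHR1 averaged 2.01 ± 0.28 CPM at Dox 24 h and 2.89 ± 0.82 CPM at Dox 12 h. These groups overlapped, and the log2 fold change of -0.54 ± 0.21 passed narrowly (adjusted p = 0.0415). It was -0.71 without Dox 12 h replicate 3 (adjusted p = 0.00843). It was no longer called without Dox 12 h replicate 1, at -0.31 (adjusted p = 0.308), or without Dox 12 h replicate 2, at -0.56 (adjusted p = 0.0698). The same held without Dox 24 h replicate 2, at -0.52 (adjusted p = 0.0991), or Dox 24 h replicate 3, at -0.46 (adjusted p = 0.137). The summed level of the 13 progenitor markers given above moved with this step too, at 4287 to 4588 CPM in the Dox 24 h libraries and 1811 to 1897 CPM in the Dox 12 h libraries, and its part was not tested. In this comparison 42.6% of all features tested were called in either direction.

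The largest step of CRHR1 in the induced cultures came later. CRHR1 averaged 6.69 ± 0.65 CPM at Dox 48 h and 2.01 ± 0.28 CPM at Dox 24 h, a log2 fold change of 1.73 ± 0.20 (adjusted p = 2.19e-08), or 3.32-fold. The 5 neuronal markers moved with this step without overlap, at a summed 1458 to 1701 CPM in the Dox 48 h libraries and 895.1 to 1055 CPM in the Dox 24 h libraries, and their part in it was not tested. ATP8B3 averaged 9.12 ± 0.18 CPM at Dox 48 h and 7.16 ± 1.24 CPM at Dox 24 h, with a log2 fold change of 0.35 ± 0.14 (adjusted p = 0.0310). That call was lost without any 1 of the 3 Dox 48 h libraries or of Dox 24 h replicates 2 and 3, with log2 fold changes from 0.24 to 0.33 and adjusted p from 0.0739 to 0.194. TESMIN averaged 4.54 ± 0.47 CPM at Dox 48 h and 3.64 ± 0.38 CPM at Dox 24 h, in overlapping groups, and did not pass (log2 fold change 0.32 ± 0.17, adjusted p = 0.104). Calls in either direction covered 58.9% of all features tested in this comparison. Against day 10, given without a test, the Dox 24 h log2 fold changes were -0.17 for TESMIN, -1.44 for CRHR1 and 1.44 for ATP8B3, and the Dox 48 h ones 0.15, 0.29 and 1.79. Without day 10 replicate 1 they were -0.15, -1.34 and 1.53 at Dox 24 h, and 0.17, 0.39 and 1.88 at Dox 48 h.

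The 3 genes therefore shared their lowest group and differed in the order of the others. For TESMIN the order from low to high was NoDox 12 h, NoDox 24 h, Dox 12 h, Dox 24 h, day 10, Dox 48 h and NoDox 48 h. The ranges of neighbours from Dox 12 h to Dox 48 h in that order overlapped, and NoDox 12 h, NoDox 24 h and NoDox 48 h each lay apart from the next group. For CRHR1 the order was NoDox 12 h, Dox 24 h, Dox 12 h, NoDox 24 h, day 10, Dox 48 h and NoDox 48 h, and all neighbours overlapped except NoDox 12 h and Dox 24 h. For ATP8B3 the order was NoDox 12 h, day 10, NoDox 24 h, Dox 12 h, NoDox 48 h, Dox 24 h and Dox 48 h. Its groups formed 4 steps without overlap, NoDox 12 h alone, then day 10 to Dox 12 h, then NoDox 48 h with Dox 24 h, then Dox 48 h. Per kilobase of exon, which lets genes be compared, the lowest levels were 0.105 CPM for TESMIN, 0.191 CPM for CRHR1 and 0.0919 CPM for ATP8B3, all at NoDox 12 h. The highest were 1.08 CPM per kilobase for TESMIN and 0.989 for CRHR1, both at NoDox 48 h, and 1.30 for ATP8B3 at Dox 48 h.

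Over the 21 libraries Pearson's r of log2 CPM was 0.88 between TESMIN and ATP8B3, 0.73 between TESMIN and CRHR1 and 0.62 between CRHR1 and ATP8B3. Over the 18 libraries left without NoDox 12 h it was 0.58, 0.56 and 0.20 for the same pairs. These are descriptions over libraries that share groups and depth.

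CRHR1 has a limit that the other genes do not. The count table also lists LINC02210-CRHR1, a feature on the same strand that shares 2277 exon bases with CRHR1, which are 32.6% of the exon bases of CRHR1 and 82.2% of its own. How reads in shared bases were counted is not given in the sources used here, so the level of CRHR1 is uncertain. MAPT-AS1, on the opposite strand, shares 403 exon bases with CRHR1 and had 0 to 24 counts a library. TESMIN shares no exon base with another feature in the table and ATP8B3 overlaps none. LINC02210-CRHR1 averaged 6.72 ± 0.28 CPM in the NoDox 12 h libraries and 12.8 ± 0.64 CPM in the day 10 libraries. It was lower at NoDox 12 h by a smaller margin than CRHR1, with a log2 fold change of -0.92. It shares exon bases with CRHR1, which that contrast chose, so no test is given for it there. Its Dox 24 h and NoDox 24 h means were 9.11 and 10.6 CPM, a log2 fold change of -0.21 ± 0.10 that did not pass (adjusted p = 0.0896).

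With the counts of CRHR1 and LINC02210-CRHR1 summed, an alternative chosen after seeing the data, the calls held in 4 of the 5 comparisons where CRHR1 alone passed, with smaller log2 fold changes. The log2 fold change of the sum was -0.38 for Dox 24 h over NoDox 24 h (adjusted p = 0.00173) and 0.44 for NoDox 48 h over NoDox 24 h (adjusted p = 2.24e-04). It was 0.85 for Dox 48 h over Dox 24 h (adjusted p = 6.90e-09), and the difference of the doxycycline effect between 48 and 24 h was 0.41 (adjusted p = 0.0191). The step from Dox 12 h to Dox 24 h did not pass for the sum, at -0.12 (adjusted p = 0.298).

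**Figure D4:**
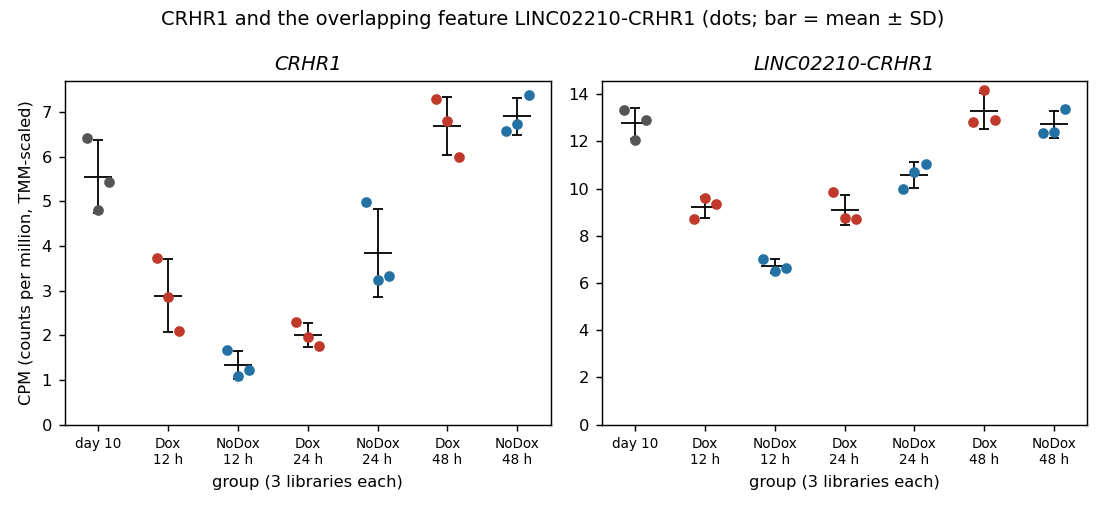
TMM-scaled CPM (vertical axes, from 0) of CRHR1 and of the overlapping feature LINC02210-CRHR1 in the 3 libraries of each group (horizontal axes). Dots are libraries and bars the mean ± SD. NoDox 12 h is the lowest group in both panels, at a mean of 1.34 CPM for CRHR1 and 6.72 CPM for LINC02210-CRHR1.

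The features whose log2 CPM over the 21 libraries was most like each gene were ranked among 14757 with a mean of at least 1 CPM. For TESMIN they were H6PD, an enzyme that makes NADPH in the endoplasmic reticulum (r = 0.96), SH3GL3, an endophilin (r = 0.95), TNFAIP8L1 (r = 0.91) and GRIN3B, an NMDA receptor subunit (r = 0.91). None of them had a NoDox 12 h level as far below its other groups as TESMIN. H6PD averaged 70.1 CPM at NoDox 12 h and 91.2 to 97.6 CPM elsewhere, and SH3GL3 averaged 2.05 CPM at NoDox 12 h and 4.54 to 6.69 CPM elsewhere. For CRHR1 they were GPRIN2 (r = 0.97), the overlapping LINC02210-CRHR1 (r = 0.94), STAC2 (r = 0.93) and LNX2, a ubiquitin ligase (r = 0.93). GPRIN2 had its lowest mean at NoDox 12 h, 22.4 CPM, and its next lowest at Dox 24 h, 26.9 CPM, the order seen for CRHR1. For ATP8B3 they were ABCA2, a lipid transporter of the ABC family (r = 0.96), MAP4K3-DT, a divergent transcript (r = 0.95), JAK3, a cytokine receptor kinase (r = 0.95), and ASIC1, an acid-sensing ion channel (r = 0.95). ABCA2 averaged 93.4 CPM at NoDox 12 h and 170.9 CPM at Dox 24 h. The NoDox 12 h libraries that chose the 3 genes take part in these correlations, which are given without a p.

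**Figure D5:**
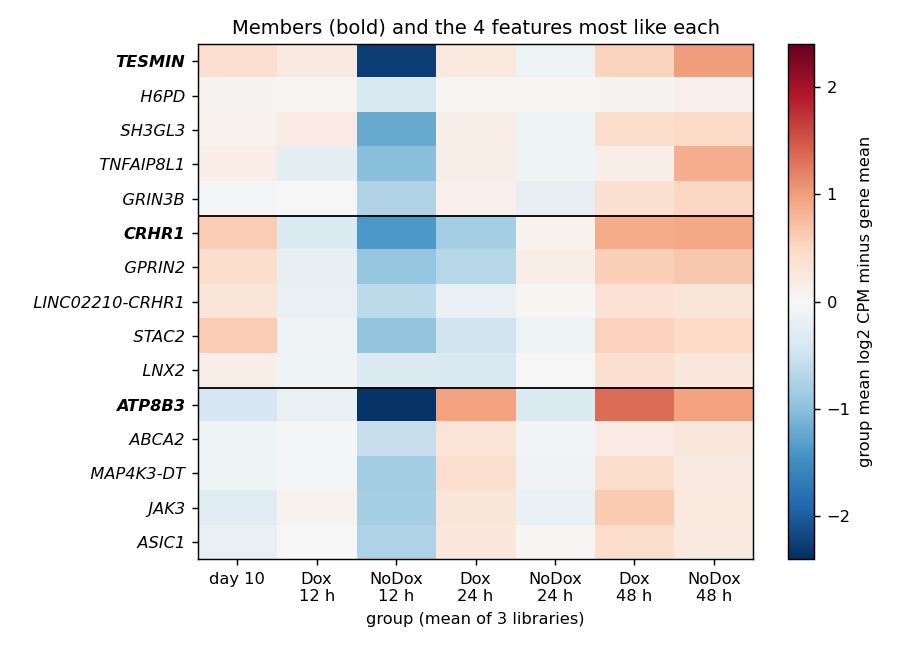
Group mean log2 CPM minus the mean of the gene (colour, blue below and red above) for TESMIN, CRHR1 and ATP8B3 and, under each, the 4 features with the highest Pearson's r over 21 libraries (rows), in the 7 groups (columns). The NoDox 12 h column is the darkest blue for TESMIN, CRHR1 and ATP8B3, and paler for the features below each.

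TESMIN shares its CXC domain with LIN54, and of 14 MuvB, DREAM and related cell cycle genes, all tested, 6 were lower and 1 higher at Dox 24 h than at NoDox 24 h, where 16.9% of all features tested were lower and 17.0% higher. Their median log2 fold change was -0.20, beside -0.0037 over all features. TESMIN itself was not called in that comparison. LIN54 itself averaged 21.1 ± 1.82 CPM in the Dox 24 h libraries and 29.9 ± 0.124 CPM in the NoDox 24 h libraries, and the log2 fold change was -0.50 (adjusted p = 4.34e-06). At NoDox 48 h against NoDox 24 h, where TESMIN rose, 8 of the 14 were lower and 1 higher, beside 19.9% of all features lower and 21.5% higher, among the lower MYBL2, a MuvB partner of S phase, at -0.84 (adjusted p = 1.35e-10), and FOXM1, a mitotic transcription factor, at -0.41 (adjusted p = 1.39e-05). The count of 8 became 5 without NoDox 24 h replicate 3. Where TESMIN was lower, at NoDox 12 h against day 10, 1 was higher and 2 lower, beside 15.5 and 16.3% of all features. The median there was 0.0065. Dox 12 h against NoDox 12 h, where TESMIN was higher, had 2 higher and 6 lower, beside 19.8 and 19.9%. Dox 48 h against NoDox 48 h, where TESMIN was lower, had 1 and 4, beside 9.23 and 8.94%. Dox 48 h against Dox 24 h, where TESMIN did not pass, had 4 and 5, beside 29.4 and 29.5%.

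TESMIN is known from male germ cells, and the cells held some but not most of the genes listed for such cells. Of 10 male germ cell markers, TEX101, PRM2, ZPBP and TNP1 were at 0 in every library, and the sum of all 10 was 0.791 to 1.63 CPM in the NoDox 12 h libraries and 1.13 to 1.45 CPM in the day 10 libraries, between 0.742 and 2.16 CPM over all groups. Of 44 male germ cell and meiosis genes 14 could be tested, and at NoDox 12 h against day 10 3 were lower and 1 higher, with a median log2 fold change of -0.09 beside -0.0074 over all features. The share called, 4 of 14, is close to the 31.8% of all features called in either direction. The tested ones included some well above TESMIN in CPM, such as REC8, a meiotic cohesin subunit, at 111.7 ± 1.61 CPM in the NoDox 12 h libraries and 119.2 ± 3.97 CPM in the day 10 libraries, and MSH5, a protein of meiotic crossovers, at 28.7 ± 0.738 and 34.05 ± 5.72 CPM in the same order. Leaving out day 10 replicate 2 left 1 of the 3 lower calls. MEIOC, a regulator of meiotic entry, was lower at NoDox 12 h, at 0.859 ± 0.063 CPM against 2.34 ± 0.53 CPM at day 10 (log2 fold change -1.42, adjusted p = 8.16e-05). MEIOC was also higher at Dox 12 h than at NoDox 12 h, by 1.60 (adjusted p = 3.90e-06), and at NoDox 48 h than at NoDox 24 h, by 0.93 (adjusted p = 7.96e-04). At Dox 12 h against NoDox 12 h 4 of the 14 were higher and none lower, beside 19.8% of all features higher, with a median of 0.63, and the 4 became 2 without NoDox 12 h replicate 2 or Dox 12 h replicate 3, while 2 were lower without Dox 12 h replicate 1. DMC1, a meiotic recombinase, was higher at NoDox 12 h than at day 10, by 1.13 (adjusted p = 0.00101). Of 12 genes, the metallothioneins and their regulator MTF1, 5 could be tested, and at NoDox 48 h against NoDox 24 h 1 passed, MT1X, a metal-binding protein, at 2.71 ± 0.91 CPM against 1.17 ± 0.38 CPM (log2 fold change 1.18, adjusted p = 0.00175), beside 41.4% of all features in either direction. At Dox 48 h against Dox 24 h 4 of the 5 were higher and none lower, beside 29.4% of all features higher, with a median of 1.43, and the 4 became 2 without Dox 48 h replicate 2. Among them were MT1E, at 0.679 ± 0.160 CPM in the Dox 48 h libraries and 0.104 ± 0.114 CPM in the Dox 24 h libraries (log2 fold change 2.67, adjusted p = 0.00490), and MT2A, at 1.60 ± 0.466 and 0.590 ± 0.246 CPM in the same order (log2 fold change 1.43, adjusted p = 0.00122). MT3, at 0.479 and 0.156 CPM in the same order, passed narrowly (log2 fold change 1.58, adjusted p = 0.0430). It lost its call under 11 alternatives, among them no filter, library totals, the DESeq2 Wald test and limma.

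Of the 10 genes of the CRH system, 8 could be tested, and at 24 h, where CRHR1 was lower in Dox cultures, 5 of them were lower and none higher, beside 16.9% of all features lower and 17.0% higher. Their median log2 fold change was -0.93, beside -0.0037 over all features. This list was chosen with earlier results of these data known, so its counts are descriptions. CRH, the ligand of CRHR1, had 0 counts in all 3 Dox 24 h libraries, against 32, 25 and 9 counts in the NoDox 24 h libraries, and was at least 18.5-fold lower when 3 counts in the whole group are taken as the limit of detection (adjusted p = 4.39e-06). PCSK1, the convertase that cuts POMC, averaged 1.01 ± 0.143 CPM in the Dox 24 h libraries and 23.7 ± 2.04 CPM in the NoDox 24 h libraries (log2 fold change -4.55, adjusted p = 4.14e-18). POMC, the ACTH precursor, averaged 2.10 ± 0.206 CPM in the Dox 24 h libraries and 10.6 ± 0.934 CPM in the NoDox 24 h libraries (log2 fold change -2.32, adjusted p = 3.40e-09). CRHBP, which binds CRH outside the cell, and TBX19, a corticotroph transcription factor, were the other lower members, at -1.47 (adjusted p = 0.00686) and -0.39 (adjusted p = 0.0362). The TBX19 call was lost without any 1 of NoDox 24 h replicates 1 and 2 and Dox 24 h replicates 2 and 3, with log2 fold changes from -0.41 to -0.33 and adjusted p from 0.0665 to 0.154.

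At 48 h, where the level of CRHR1 overlapped between Dox and NoDox cultures, 3 of the 8 were lower in Dox cultures and none higher, beside 8.94% of all features lower. These were CRH (log2 fold change -3.71, adjusted p = 8.35e-04), POMC (-2.27, adjusted p = 3.26e-08) and PCSK1 (-1.45, adjusted p = 3.10e-08). CRH had 1, 2 and 0 counts in the Dox 48 h libraries, against 12, 18 and 16 in the NoDox 48 h libraries. From Dox 24 h to 48 h, where CRHR1 rose, 3 members were higher and 1 lower, beside 29.4 and 29.5% of all features. CRHBP (2.81), PCSK1 (2.52) and TBX19 (1.29) were higher, and the urocortin UCN3 (-3.67) was lower, a call lost without Dox 24 h replicate 3. In NoDox cultures from 24 to 48 h, where CRHR1 also rose, 1 was higher and 2 lower, beside 21.5 and 19.9%. The interaction described above was called positive for 3 and negative for none, beside 12.7 and 13.1%. At Dox 12 h against NoDox 12 h, where CRHR1 was higher, 4 of the 8 were lower and none higher, beside 19.9% of all features lower, namely CRH, PCSK1, CRHBP and POMC, with a median log2 fold change of -0.90 beside 0.0083 over all features. The urocortins UCN and UCN2, further ligands of the family, averaged 1.16 ± 0.170 and 1.30 ± 0.099 CPM in the Dox 24 h libraries and 1.22 ± 0.397 and 1.18 ± 0.302 CPM in the NoDox 24 h libraries (SD, n = 3 each), and UCN3, another, averaged 0.309 ± 0.281 CPM in the Dox 24 h libraries and 0.132 ± 0.116 CPM in the NoDox 24 h libraries. None of the 3 passed. Of 4 corticotroph markers, PITX1 was at 0 in all 3 NoDox 12 h libraries and averaged 0.267 CPM or less in every group, and the other 3 averaged at least 1 CPM in every group. Their sum, mostly POMC, TBX19 and NEUROD4, was 11.3 to 13.4 CPM in the Dox 24 h libraries and 21.04 to 25.7 CPM in the NoDox 24 h libraries, and its part in the fall of CRHR1 was not tested.

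Other class B1 receptors differed by comparison in whether they moved the way CRHR1 did. Of 14 listed, 8 could be tested, and at Dox 24 h against NoDox 24 h 1 was higher and 1 lower, no larger a share than the 33.9% of all features called in either direction, with a median log2 fold change of -0.22. The higher one was ADCYAP1R1, the receptor for PACAP, at 5.55 ± 1.27 CPM against 1.68 ± 0.593 CPM (log2 fold change 1.68, adjusted p = 3.21e-07). The count of higher receptors became 2 without Dox 24 h replicate 3, and the lower call was lost without that library, without Dox 24 h replicate 2 or without NoDox 24 h replicate 1. At Dox 12 h against NoDox 12 h, where CRHR1 was also higher, 5 of the 8 were higher and 1 lower, beside 19.8% of all features higher and 19.9% lower, with a median of 1.65 beside 0.0083 over all features. The higher ones included VIPR1, a receptor for VIP, at 2.25 (adjusted p = 8.32e-06), GIPR, the receptor for the incretin GIP, at 1.68 (adjusted p = 8.14e-08), and PTH1R, the parathyroid hormone receptor, at 1.62 (adjusted p = 1.98e-07), and the lower one was VIPR2, a second VIP receptor, at -0.89 (adjusted p = 3.99e-06). At Dox 48 h against Dox 24 h, where CRHR1 rose most in induced cultures, 4 of the 8 were higher and none lower, beside 29.4% of all features higher, with a median of 0.45 beside -0.016 over all features. These were GIPR at 1.04 (adjusted p = 1.60e-06), VIPR2 at 0.77 (adjusted p = 2.89e-05), PTH1R at 0.67 (adjusted p = 0.00488) and VIPR1 at 0.92 (adjusted p = 0.0367). The VIPR1 call was lost without Dox 48 h replicate 2, at 0.58 (adjusted p = 0.269), or without any 1 of the 3 Dox 24 h libraries, at 0.87 to 0.99 (adjusted p from 0.0568 to 0.0875). At Dox 24 h against Dox 12 h, where CRHR1 was lower, 6 were lower and none higher, beside 21.1% of all features lower, and at NoDox 48 h against NoDox 24 h 3 were higher and 1 lower, beside 21.5 and 19.9%. At Dox 48 h against Dox 24 h lower receptors numbered 1 without Dox 24 h replicate 3 and 2 without Dox 48 h replicate 3. GIPR and PTH1R were also the 2 called lower at NoDox 12 h against day 10, where 16.3% of all features were lower, at -1.36 (adjusted p = 1.41e-05) and -0.81 (adjusted p = 0.00659), the contrast that chose CRHR1.

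No other flippase was called higher with ATP8B3 at 24 h, and at 48 h ATP10A and ATP8A2 had larger log2 fold changes than ATP8B3, downward. Of 15 other P4-ATPases and CDC50 subunits, 13 could be tested, and at Dox 24 h against NoDox 24 h, where ATP8B3 rose, 3 were lower and none higher, beside 16.9% of all features lower, with a median log2 fold change of -0.15 against -0.0037 over all features. ATP8A2, a flippase of neurons, averaged 8.40 ± 1.23 CPM in the Dox 24 h libraries and 14.0 ± 1.07 CPM in the NoDox 24 h libraries (log2 fold change -0.74, adjusted p = 7.20e-05). TMEM30A, the CDC50 subunit most flippases need, was lower by a small margin, at 112 ± 4.37 CPM against 131.8 ± 6.04 CPM (log2 fold change -0.23, adjusted p = 0.00260). The remaining lower member, ATP11B, was at -0.23 (adjusted p = 0.0289). That call was lost without NoDox 24 h replicate 2 or 3, or without any 1 of the Dox 24 h libraries. Its log2 fold change was then -0.24 to -0.20, with adjusted p from 0.0605 to 0.114. ATP8B2, from the same subfamily as ATP8B3, did not pass, at 54.6 ± 0.839 CPM against 59.3 ± 2.97 CPM (log2 fold change -0.12, adjusted p = 0.317). At 48 h 3 of the 13 were lower in Dox cultures and none higher, beside 8.94% of all features lower, among them ATP10A at -0.75 (adjusted p = 0.00407) and ATP8A2 at -0.66 (adjusted p = 0.00414). The remaining one, ATP11A, was at -0.37 (adjusted p = 0.0431) and lost its call under 15 alternatives. These included the replicate block (adjusted p = 0.0585). They also included leaving out any 1 of the Dox 48 h or NoDox 48 h libraries (adjusted p from 0.0583 to 0.157). At NoDox 12 h against day 10, the contrast that chose ATP8B3, 4 were lower and none higher, beside 16.3% of all features lower, the most changed being ATP8A1, another flippase, at -0.65 (adjusted p = 9.08e-04), and TMEM30A at -0.43 (adjusted p = 2.77e-06). In that contrast 2 were higher when Dox 12 h replicate 3 was left out of the fit.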

How the data were processed

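Polyadenylated RNA was made into libraries with the NEBNext Ultra II Directional kit, per the labels' protocols, for 21 libraries in 7 groups of 3. The authors deposited whole-number read counts per feature, with gene lengths and exon coordinates. The submitters' processing notes name STAR 2.7.9, Subread 2.0.3, DESeq2 and the build hg38. Neither the annotation nor the strand setting nor the treatment of reads in overlapping features is given in the sources used here. A second deposited table, of normalized values (a signal scale), holds the counts divided by 1 size factor per library, tested on the files, and was used for 1 alternative.

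Counts were fitted in R 4.3.3 with edgeR 4.0.16: filterByExpr, TMM scaling, all 7 groups in 1 robust quasi-likelihood fit with 14 residual degrees of freedom, F tests, and Benjamini-Hochberg adjustment over the 19655 features kept, which hold 99.92% of all counts. A call is an adjusted p below 0.05, and SE is the log2 fold change over the square root of F. CPM are TMM-scaled, and log2 CPM use a prior count of 2. Totals of 14439089 to 33842591 counts set the precision, and a gene at 6 to 19 counts a library is measured coarsely. The code was tested on simulated counts. Replicate numbers were not taken as pairs, since in no comparison did all 3 same-numbered pairs of deviations correlate above 0.1.

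The 3 genes, the 6 gene lists and the markers were chosen with earlier results of these data known. Genes named beside the 3 are the 4 most correlated features whose mean reaches 1 CPM, without clone-style names, the nearest 2 tested features on each side, up to 4 called members of each list by size of change, and GSX2 with its transgene. Other list members are named with their values, and list members that lost a call without 1 library are counted and not always named. Alternatives were DESeq2 1.42.0 size factors, library totals without TMM, no filter, only the groups compared, the replicate block, a DESeq2 Wald test, limma 3.58.1 on log2 of the normalized value + 1, and leaving out each library. Promoter sequence came from a RefSeq table on GRCh38.p14 that matched 2 of the 3 genes.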

Additional observations from a re-analysis of the deposited data

Results flagged for a closer look

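The doxycycline effect differed between 48 h and 24 h for all 3 genes, by the interaction test reported above. For TESMIN the effect at 48 h minus that at 24 h was -0.83 log2 units, with Dox over NoDox of opposite sign at the 2 times. The TESMIN effect at 24 h did not pass by itself (adjusted p = 0.0965). Its call at 48 h was lost without any 1 of 7 libraries. For ATP8B3 it was -0.97, both effects being above 0. For CRHR1 it was 0.92, the effect being near 0 at 48 h and below 0 at 24 h. Without NoDox 24 h replicate 1 the CRHR1 difference was 0.66 and did not pass (adjusted p = 0.0848).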

How the results depend on the processing

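For the 3 genes, 477 of 510 alternative values in the 6 tested comparisons kept their direction and their side of the threshold, 26 lost the call, 1 gained it and 6 changed sign. The rises of all 3 genes from 24 to 48 h in NoDox cultures, the 24 h effects on CRHR1 and ATP8B3, the ATP8B3 step at Dox 24 h, the CRHR1 step at Dox 48 h and the ATP8B3 effect difference kept their call under every alternative. The replicate block changed no call of the 3 genes (TESMIN at 48 h -0.46). In Dox 24 h against NoDox 24 h 3 of 3 libraries correlated best with their own number, which is a hint from the data only. For TESMIN at 48 h the call was lost with no filter (-0.47, adjusted p = 0.0880) and with limma (-0.46, adjusted p = 0.152), and ranged from -0.53 to -0.39 with 1 library left out. TESMIN's effect difference was lost with limma (-0.81, adjusted p = 0.0579). TESMIN at Dox 24 h over Dox 12 h changed sign with library totals (-0.15) and ranged from -0.067 to 0.085. CRHR1 at 48 h changed sign in the summed counts (0.028) and ranged from -0.11 to 0.018. CRHR1 at Dox 24 h over Dox 12 h was lost with only the groups compared (-0.53), limma (-0.48) and summed counts (-0.12), and ranged from -0.71 to -0.31. Its effect difference ranged from 0.66 to 1.03. ATP8B3 at 48 h passed with only the groups compared (0.35, adjusted p = 0.0455). ATP8B3 at Dox 48 h over Dox 24 h was lost with no filter (0.31), library totals (0.19) and limma (0.35), and ranged from 0.24 to 0.50. The causes were not tested. Of all features, library totals called 1017 higher and 2835 lower at 48 h, 2415 and 7503 at Dox 24 h over Dox 12 h, and 7340 and 2213 at Dox 12 h over NoDox 12 h. The share of higher calls was then 26.4, 24.4 and 76.8%, beside 50.8, 50.4 and 49.9% with TMM. Higher calls at 48 h ranged from 1041 to 2288 with 1 library left out. Depth limits the NoDox 12 h values of TESMIN and ATP8B3, which rest on 6 to 19 counts a library.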

Other observations

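The nearest tested neighbours of the 3 genes moved in both directions at NoDox 12 h over day 10, where 31.8% of all features were called. CPT1A, the carnitine palmitoyltransferase of fatty acid oxidation, lies on the minus strand of chromosome 11, from 68754620 to 68844410. It ends 3100 bases from TESMIN and starts at the far coordinate. CPT1A was also lower at NoDox 12 h than at day 10, with a log2 fold change of -0.71 (adjusted p = 0.0111). Without NoDox 12 h replicate 3 it was -0.58 (adjusted p = 0.0710). CPT1A was higher at Dox 12 h than at NoDox 12 h, at 1.82 (adjusted p = 7.35e-09). GAL, the neuropeptide galanin, on the other side of TESMIN, was higher at NoDox 12 h than at day 10, at 1.16 (adjusted p = 0.0175), a call lost at 0.98 without day 10 replicate 2 (adjusted p = 0.0905) or without NoDox 12 h replicate 1 (adjusted p = 0.0859). LINC02701, beyond CPT1A, was also higher at NoDox 12 h, at 1.07 (adjusted p = 0.00973; 0.79 and adjusted p = 0.0902 without NoDox 12 h replicate 1). LINC02210, before CRHR1, was lower at NoDox 12 h, at -0.29 (adjusted p = 6.65e-04). MAPT, the microtubule protein tau, lies 58699 bases from CRHR1 and had the same signs as CRHR1 at NoDox 12 h over day 10 (-0.51, adjusted p = 0.00551), at 24 h (-0.47, adjusted p = 0.00333) and from Dox 24 h to Dox 48 h (0.93, adjusted p = 4.23e-07), though its 24 h value was -0.30 without NoDox 24 h replicate 1 (adjusted p = 0.0570). Next to ATP8B3, REXO1 was lower at NoDox 12 h than at day 10 (-0.27, adjusted p = 0.00285). ONECUT3, on the other side at 1087 bases, had a log2 fold change of 1.10 that did not pass (adjusted p = 0.116), while it passed without day 10 replicate 3, at 2.18 (adjusted p = 0.0168), and with limma, at 1.27 (adjusted p = 0.0401), and was 0.66 without day 10 replicate 2.

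UCN3, the urocortin that prefers the other CRH receptor, had 13, 19 and 4 counts in the NoDox 12 h libraries and 0 in all 3 day 10 libraries, so it was at least 11.3-fold higher against a limit of 3 counts in the whole day 10 group, in the contrast in which CRHR1 was lower. Of the 8 tested genes of the CRH system, 1 was called higher there and 1 lower, beside 31.8% of all features in either direction. The lower one was TBX19, a call lost without NoDox 12 h replicate 1.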
